A study of Mus musculus with 3 samples.

Results

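The genes of Wnt signalling were examined in adipose stem and progenitor cells, the stromal cells of fat from which new adipocytes form. The set was taken by gene name: 41 genes of the Wnt, Frizzled (Fzd), secreted Frizzled-related (Sfrp), Dickkopf (Dkk) and R-spondin (Rspo) families, and 21 receptors, modulators and effectors named one by one. All 62 were in the count table of 27179 genes, and none was chosen by its level. The donors of the cells were untreated (naive) wild-type males of the C57B6 strain, aged 12 weeks, and the depot was epididymal fat. They were sorted as live cells without CD45, CD31 and Ter119 and with CD140a, Sca1 and podoplanin. There was 1 group of 3 libraries, with no treatment, genotype or second cell type beside it. The comparisons are therefore between genes within a library and between libraries. Fat of 3 mice was used, and no label says that each library is a separate animal, so p-values measure only the spread between these libraries, part of which may be technical.

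Wnt proteins are secreted lipid-modified ligands. Porcupine attaches the lipid, Wntless carries the ligand to the cell surface, and Frizzled receptors bind it together with LRP5 or LRP6 or with other partners. In the canonical branch, the destruction complex that degrades beta-catenin is then held back, and beta-catenin acts with TCF/LEF factors in the nucleus. Other branches, typical of Wnt5a, run through Ror and Ryk receptors and planar polarity proteins. Canonical Wnt signalling is known to hold back the formation of fat cells, and Wnt5a has been linked to the regulation of fat tissue.

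Levels are given in CPM (counts scaled to a common library size, with TMM factors), as mean ± SD over n = 3 libraries or library by library in the order of replicates 1, 2 and 3. Differences between genes and shares of a family are computed only in CPM per kilobase of exon. Thresholds and the choice of named genes use CPM, which is not scaled by length. The libraries held 25060096 to 32813373 counts, and Pearson's r of log2(CPM + 0.5) between them was 0.833 to 0.838 over 12578 genes. A count of 0 allows up to 3 counts, or 0.0945 to 0.119 CPM, counting error only. The sorted genes Ly6a (Sca1), Pdgfra (CD140a) and Pdpn were at 3254 ± 441, 1484 ± 14.5 and 119 ± 31.9 CPM, while Pecam1 (CD31) had 4 counts in all and Ptprc (CD45) was at 9.62 ± 5.44 CPM. Marker genes at 1 CPM or more in every library were 0 of 8 endothelial, 0 of 9 macrophage, 0 of 8 lymphocyte, 0 of 6 epididymal epithelial, 1 of 8 mesothelial (Nkain4), 1 of 9 mural (Abcc9), 1 of 9 mature adipocyte (Fabp4) and 2 of 5 Schwann cell genes (Mbp and S100b). RNA was pooled from sorted cells, so fewer cells carrying a transcript and less of it per cell cannot be told apart.

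Of the 62 genes, 26 (41.9%) reached 1 CPM in every library, 10 (16.1%) did so in 1 or 2 libraries, and 26 in none. The share reaching 1 CPM in every library was 35.0% over all genes of the table and 43.7% over protein-coding genes, so the share of the Wnt genes, which all code for proteins, lay near the background. The share reaching it in only 1 or 2 libraries was 11.9% over protein-coding genes. By CPM, which is not scaled by exon length, 8 genes averaged 100 or more (Ctnnb1, Wnt5a, Sfrp1, Wls, Lrp6, Sfrp4, Tcf7l2 and Ryk). Another 17 lay between 10 and 100 CPM, and 19 had fewer than 5 counts over the 3 libraries. In mean CPM per kilobase of exon, Rspo3 (29.2), Sfrp2 (20.7), Rspo1 (17.7) and Fzd1 (16.4) lay above Lrp6 (13.1) and Tcf7l2 (13.4). Wnt11 (13.4) and Fzd7 (13.3) lay above Lrp6. Rspo3, Sfrp2, Rspo1, Fzd1, Wnt11 and Fzd7 each averaged below 100 CPM. By role, those at 1 CPM in every library were 3 of 19 Wnt ligands, 1 of 3 genes of ligand acylation and release, 6 of 10 Frizzled receptors, 1 of 2 LRP co-receptors and 2 of 3 alternative receptors. They were 2 of 4 R-spondins, 2 of 5 R-spondin receptors and ligases, 3 of 6 Frizzled-related genes with Wif1, 2 of 4 Dickkopf genes and 4 of 6 genes of the beta-catenin group. Differences between the roles were not tested.

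**Figure D1:**
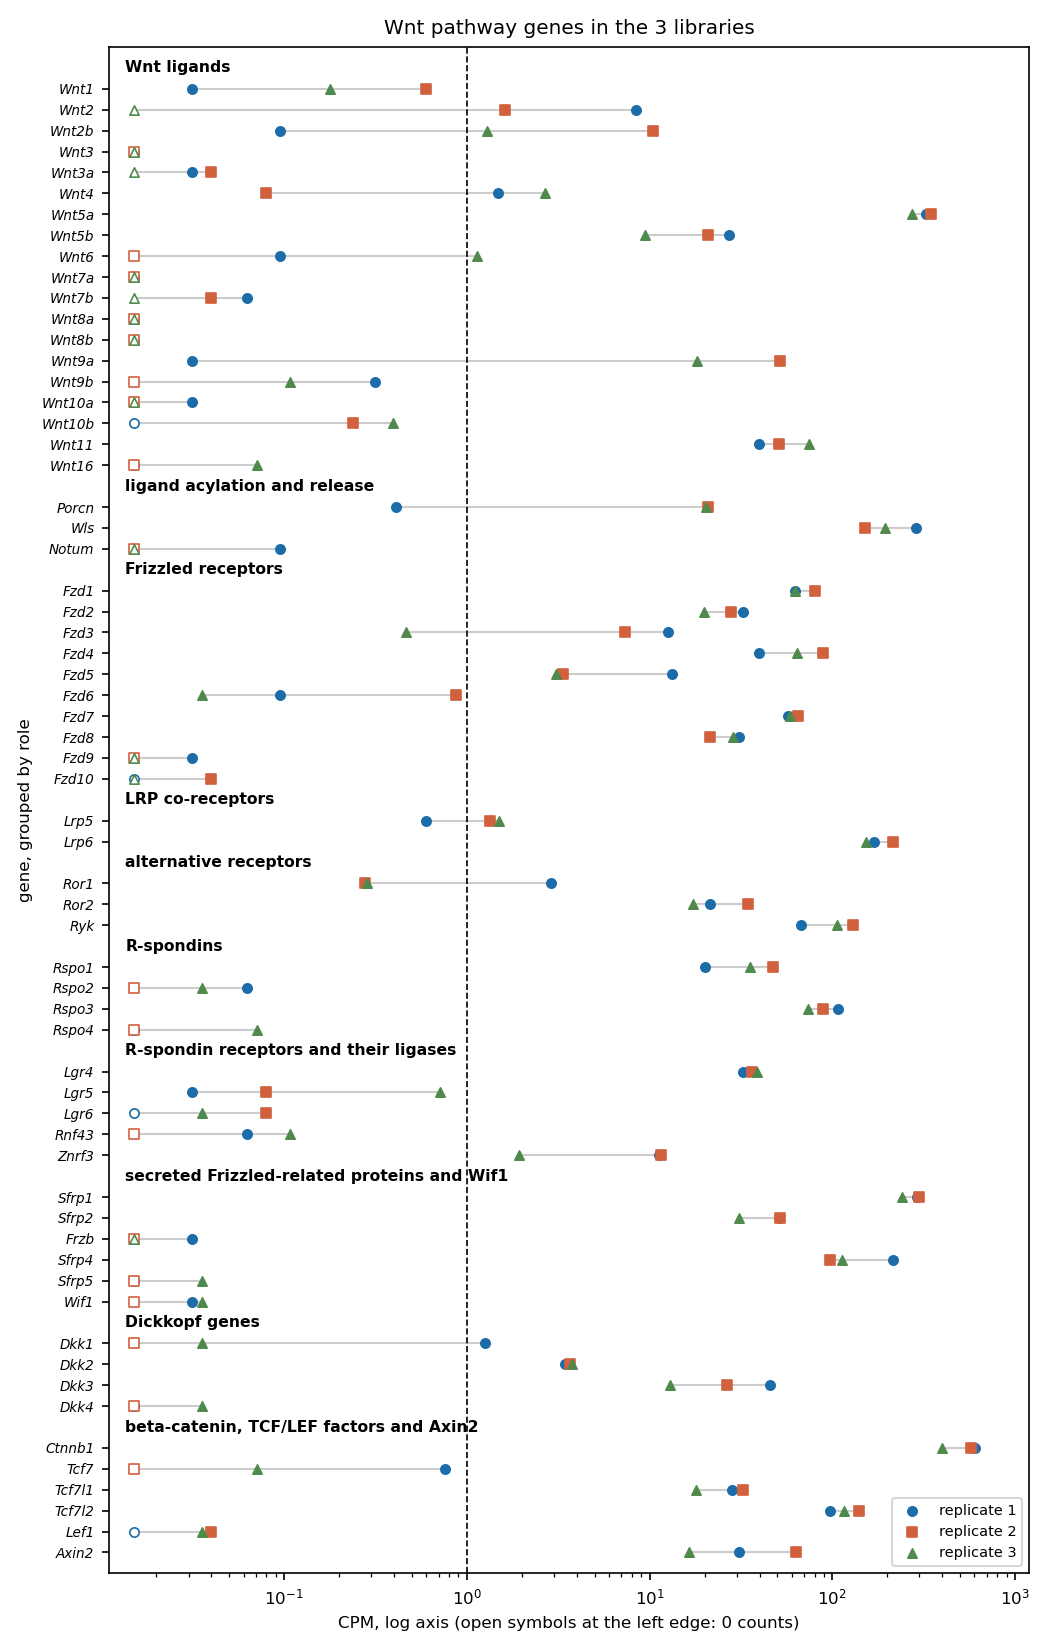
CPM of each of the 62 Wnt pathway genes in the 3 libraries (log axis, 1 symbol per library, grey line from the lowest to the highest, dashed line at 1 CPM, open symbols at the left edge for 0 counts). Of the 62 genes, 26 lie right of the dashed line in every library, 26 lie left of it in every library and 10 cross it.

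Promoter sequence was compared as a property that neither the gene names nor the counts had used. RefSeq windows of 250 bases before to 50 after a start (GRCm38.p6) were at hand for 42 of the 62 genes. Wnt5a, Sfrp1, Sfrp4 and Lrp6, all averaging 100 CPM or more, had no window, nor had Rspo3 and Porcn. CpG dinucleotides, the sites of DNA methylation, were dense in windows of Wnt genes at and below the detection threshold. The median was 29.0 CpG for 17 genes at 1 CPM in every library, 31.0 for 7 genes in 1 or 2 libraries and 24.5 for 18 genes in none. For protein-coding genes the medians were 22.0, 17.0 and 4.0 in the same order. The windows of 4 genes are printed to show the range, with each CpG in capitals, read 5′ to 3′ on the gene's strand. They belong to Axin2 (chr11:108920099-108920398, plus strand, 31 CpG), Wls (chr3:159839400-159839699, plus strand, 11 CpG), Wnt9a (chr11:59306680-59306979, plus strand, 58 CpG) and Wnt7a (chr6:91411304-91411603, minus strand, 42 CpG).
Axin2: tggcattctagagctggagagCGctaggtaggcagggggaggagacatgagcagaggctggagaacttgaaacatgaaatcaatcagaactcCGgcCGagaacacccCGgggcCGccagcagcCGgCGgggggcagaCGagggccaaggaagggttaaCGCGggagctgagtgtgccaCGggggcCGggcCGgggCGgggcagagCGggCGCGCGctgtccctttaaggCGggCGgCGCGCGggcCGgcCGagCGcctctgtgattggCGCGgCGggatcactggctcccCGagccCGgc
Wls: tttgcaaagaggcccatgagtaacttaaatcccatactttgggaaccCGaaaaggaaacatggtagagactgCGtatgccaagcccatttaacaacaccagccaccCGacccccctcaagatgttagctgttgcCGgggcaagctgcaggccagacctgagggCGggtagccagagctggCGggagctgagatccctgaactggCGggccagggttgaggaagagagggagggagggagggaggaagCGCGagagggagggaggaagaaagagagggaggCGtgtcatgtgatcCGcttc
Wnt9a: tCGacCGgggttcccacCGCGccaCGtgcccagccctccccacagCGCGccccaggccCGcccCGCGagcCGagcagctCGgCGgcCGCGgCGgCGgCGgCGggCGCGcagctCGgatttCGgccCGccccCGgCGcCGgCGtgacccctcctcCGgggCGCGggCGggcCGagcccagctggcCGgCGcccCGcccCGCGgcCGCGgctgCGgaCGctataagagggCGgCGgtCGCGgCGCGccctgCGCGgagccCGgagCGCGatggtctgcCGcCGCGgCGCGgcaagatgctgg
Wnt7a: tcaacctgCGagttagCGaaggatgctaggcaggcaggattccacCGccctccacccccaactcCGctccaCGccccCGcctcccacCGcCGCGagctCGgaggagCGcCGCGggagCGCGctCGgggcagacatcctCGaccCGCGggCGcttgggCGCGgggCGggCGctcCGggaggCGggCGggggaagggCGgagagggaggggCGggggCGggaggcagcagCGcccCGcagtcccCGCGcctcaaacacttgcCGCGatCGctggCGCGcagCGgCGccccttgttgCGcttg

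Wnt7a, with 42 CpG, had 0 counts in every library, while Wls, with 11, was among the 8 genes averaging 100 CPM or more. Wnt9a, a ligand gene that ran from 1 to 1310 counts between libraries, had the highest CpG number of the 42 genes, averaged over a gene's windows where it had several. The letters ATCAAAG, a core recognised by TCF/LEF factors, were sought on both strands. Counting a gene once however many windows it has, they occurred only for Wnt5b and Wnt11 of the 42 genes. Both were among the 17 Wnt genes at 1 CPM in every library, and they had 3 and 2 windows where most genes had 1. Among protein-coding genes the letters occurred for 3.08% of the 7412 at 1 CPM in every library. They occurred for 4.65% of the 7419 below 1 CPM in every library, and a link to level was not tested. Counted by window, 3.73% of all 32851 RefSeq windows held them. Axin2's only window held no such match. That window lies downstream of the gene's first annotated base (chr11:108917828), and no sequence outside it was searched.

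**Figure D2:**
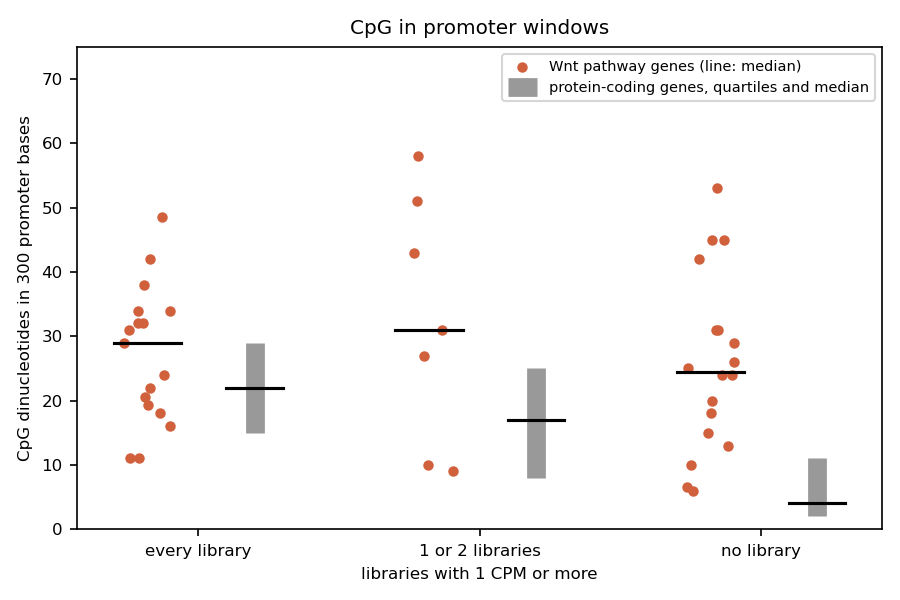
CpG dinucleotides in the 300 promoter bases (mean over a gene's windows) of 42 Wnt genes, split by the number of libraries in which they reached 1 CPM. Points are genes with the median as a line, and grey bars are the quartiles of all protein-coding genes with their median. Wnt genes below 1 CPM in every library had a median of 24.5 CpG, protein-coding genes at that level 4.0.

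Wnt5a was the leading ligand gene. It encodes a ligand best known for signalling without beta-catenin, and it lies at chr14:28504543-28527448 (NCBI Gene 22418, GRCm38). It had 10318, 8778 and 7662 counts, that is 325, 348 and 274 CPM, so the highest library was 1.27 times the lowest. Per kilobase of exon Wnt5a stood at 40.3 ± 4.86, rank 1148 of the 21610 genes with an exon length, and made up 57.0% ± 5.54 of the summed level of the 19 Wnt genes. Wnt11, another ligand tied to beta-catenin-independent signalling, had 39.7, 51.4 and 75.04 CPM. Its share of the summed ligand level per kilobase was 14.6%, 14.8% and 28.4%, while that of Wnt5b was 15.5%, 9.39% and 5.58% and that of Wnt9a was 0.0144%, 18.6% and 8.57%. The second ligand gene after Wnt5a was therefore a different one in each library. Wnt5b, the close relative of Wnt5a, had 27.1, 20.9 and 9.46 CPM and lay below Wnt11 in replicates 2 and 3 per kilobase. On the log2 scale of CPM per kilobase + 0.1, Wnt5a exceeded Wnt5b by 2.585 ± 0.63 and Wnt11 by 1.63 ± 0.61, in 3 of 3 libraries each. The order of Wnt11 and Wnt5b was not settled, with a difference of 0.96 ± 1.23.

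The other 16 ligand genes were not at 1 CPM in every library. Wnt9a stood out among them with 1, 1310 and 510 counts, or 0.0315, 51.9 and 18.2 CPM, near the limit of detection in replicate 1 and above 10 CPM in the other libraries. It lies at chr11:59306849-59333552 (NCBI Gene 216795, GRCm38), and its CpG-dense promoter is printed above. Wnt2b (0.0945, 10.50 and 1.29 CPM) was also low in replicate 1, whereas Wnt2 (8.38, 1.625 and 0 CPM) was highest there and had 0 counts in replicate 3. Both belong to the group of ligands commonly linked to beta-catenin. Wnt4 (1.48, 0.0793 and 2.68 CPM) and Wnt6 (0.0945, 0 and 1.14 CPM) crossed 1 CPM in some libraries. Wnt1, Wnt9b and Wnt10b had 21, 13 and 17 counts in all and stayed below 1 CPM in each library. Wnt10b encodes a ligand known for holding back fat cell formation, and its 0, 6 and 11 counts gave at most 0.393 CPM. Wnt3a, Wnt7b, Wnt10a and Wnt16 had 1 to 3 counts in all, and Wnt3, Wnt7a, Wnt8a and Wnt8b had 0.

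The ligand carrier gene Wls was at 287.5, 151 and 196 CPM (24.0 ± 7.92 per kilobase). Porcn, which encodes the enzyme that attaches the lipid, had 13, 525 and 573 counts, or 0.41, 20.8 and 20.5 CPM. Replicate 1 was therefore low in Porcn and high in Wls, while the other libraries held both. Wls exceeded Porcn per kilobase in 3 of 3 libraries with a log2 difference of 3.37 ± 3.25, or of 1.49 without replicate 1. Notum, which encodes an enzyme that removes the lipid from Wnt proteins outside the cell, had 3, 0 and 0 counts.

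Among the Frizzled receptor genes, Fzd1 (62.6, 80.9 and 62.5 CPM) and Fzd7 (57.1, 65.2 and 58.8 CPM) led the family. They made up 31.1% ± 1.43 and 25.4% ± 1.42 of the summed Frizzled level per kilobase. Fzd4, a receptor also known for binding Norrin, had 39.5, 88.8 and 64.0 CPM, with replicate 1 lowest. Fzd2 stood at 26.7 ± 6.41 and Fzd8 at 26.95 ± 5.04 CPM. Fzd5 had 13.2, 3.37 and 3.07 CPM, so its mean of 6.55 CPM fell to 3.22 without replicate 1. Fzd3 had 12.6 and 7.37 CPM in replicates 1 and 2 and 0.464 in replicate 3. Fzd6 stayed below 1 CPM in every library, with 26 counts in all, and Fzd9 and Fzd10 had 1 count each. Norrin's own gene Ndp had 0 counts.

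Per kilobase, the Frizzled genes ran in the order Fzd1 (16.4 ± 2.53), Fzd7 (13.3 ± 0.953), Fzd4 (9.54 ± 3.66), Fzd2 (7.29 ± 1.75), Fzd8 (4.51 ± 0.844) and Fzd5 (0.947 ± 0.834). Neighbours were called apart where the sign of the log2 difference was the same in every library and its mean exceeded its SD. By that measure Fzd4 and Fzd2 were not apart (0.34 ± 0.79, Fzd4 higher in 2 of 3 libraries), and the other neighbours were. The order came from the means of the same 3 libraries, so this measure describes it and is not a test. The smallest difference called apart was that of Fzd1 over Fzd7, 0.29 ± 0.12.

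The co-receptor genes were unequal. Lrp6 had 169, 214 and 153 CPM, and Lrp5 had 19, 34 and 42 counts, or 0.599, 1.35 and 1.5 CPM. Per kilobase, Lrp6 took 99.1% ± 0.433 of the pair's sum, and it was higher than Lrp5 in each library, with a log2 difference of 5.93 ± 0.41. The size of that difference depended on the 0.1 added before the log, as Lrp5 averaged 0.118 per kilobase. It was 6.75 with 0.01 added and 3.64 with 1 added. The alternative receptors were led by Ryk, which encodes a Wnt-binding receptor related to tyrosine kinases, with 67.2, 130 and 106 CPM. Ror2, a Wnt5a receptor gene, followed with 21.45, 34.6 and 17.3 CPM, 1.94 ± 0.49 below Ryk per kilobase on the log2 scale. Its paralog Ror1 had 2.90, 0.277 and 0.286 CPM and lay below Ror2 in 3 of 3 libraries. A pseudogene named for Ryk exists in the annotation, so its counts are less certain.

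R-spondins strengthen Wnt signalling by binding Lgr receptors and drawing the ligases Rnf43 and Znrf3, which remove Frizzled receptors, away from the surface. Rspo3 had 108, 88.7 and 73.9 CPM and Rspo1 had 20.1, 47.6 and 35.3 CPM. Rspo3 was higher per kilobase in every library, but the difference of 0.79 on the log2 scale was within its SD of 0.83, and it was 0.31 without replicate 1. Rspo2 and Rspo4 had 3 and 2 counts in all. Of the receptor genes, Lgr4 was even across libraries at 32.5, 36.3 and 38.6 CPM. Lgr5, a marker of several epithelial stem cells, had 1, 2 and 20 counts, and Lgr6 had 3 in all. Znrf3 had 11.3, 11.6 and 1.93 CPM, with replicate 3 lowest, and Rnf43 had 5 counts in all.

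The secreted Frizzled-related proteins bind Wnt ligands outside the cell. Sfrp1 had 291, 298 and 241 CPM and Sfrp4 had 214, 96.8 and 113 CPM, the latter highest in replicate 1. Sfrp2 was at 51.3, 51.5 and 30.9 CPM. Per kilobase, Sfrp1 (63.3 ± 7.09) exceeded Sfrp4 (33.8 ± 15.2) by 0.98 ± 0.59 and Sfrp2 (20.7 ± 5.50) by 1.64 ± 0.26 in log2 units, each time in all 3 libraries. Sfrp4 and Sfrp2 were not apart (0.66 ± 0.62, Sfrp4 higher in 2 of 3 libraries). The other family members were close to absent: Sfrp5 and Frzb had 1 count each in all. The summed level per kilobase of the Frizzled-related genes was 2.16, 1.37 and 1.51 times that of the 19 Wnt genes, above it in each library. Wif1, another secreted Wnt-binding protein gene, had 2 counts in all.

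Dickkopf proteins 1, 2 and 4 act on the LRP co-receptors, while Dkk3 is a divergent member. Dkk3 had 45.9, 26.5 and 13.0 CPM, a 3.53-fold range. Dkk2 was low and even at 3.465, 3.69 and 3.75 CPM, the narrowest range of the 26 genes, and lay 2.81 ± 0.95 below Dkk3 per kilobase on the log2 scale. Dkk1 had 40, 0 and 1 counts, so its 1.26 CPM in replicate 1 had no counterpart in the other libraries. Dkk4 had 1 count.

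Ctnnb1, the beta-catenin gene, had the highest level of the set with 607, 574 and 397 CPM (101 ± 21.7 per kilobase, rank 500). Its product also links cadherins at cell contacts. Of the TCF/LEF factor genes, Tcf7l2 had 97.8, 139 and 116 CPM and Tcf7l1 had 28.1, 32.3 and 17.96 CPM. Per kilobase, Tcf7l2 was higher than Tcf7l1 in each library, with a log2 difference of 1.02 ± 0.44. Tcf7 had 24, 0 and 2 counts and Lef1 0, 1 and 1, so the 2 factors most used in lymphocytes were near the limit of detection. Axin2, a feedback inhibitor gene that beta-catenin commonly switches on, had 30.9, 63.25 and 16.5 CPM. Replicate 2 was 3.83 times replicate 3, and the mean of 36.9 CPM was 23.7 without replicate 2. Per kilobase, Axin2 and Tcf7l1 were not apart, with a log2 difference of -0.16 ± 0.56.

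**Figure D3:**
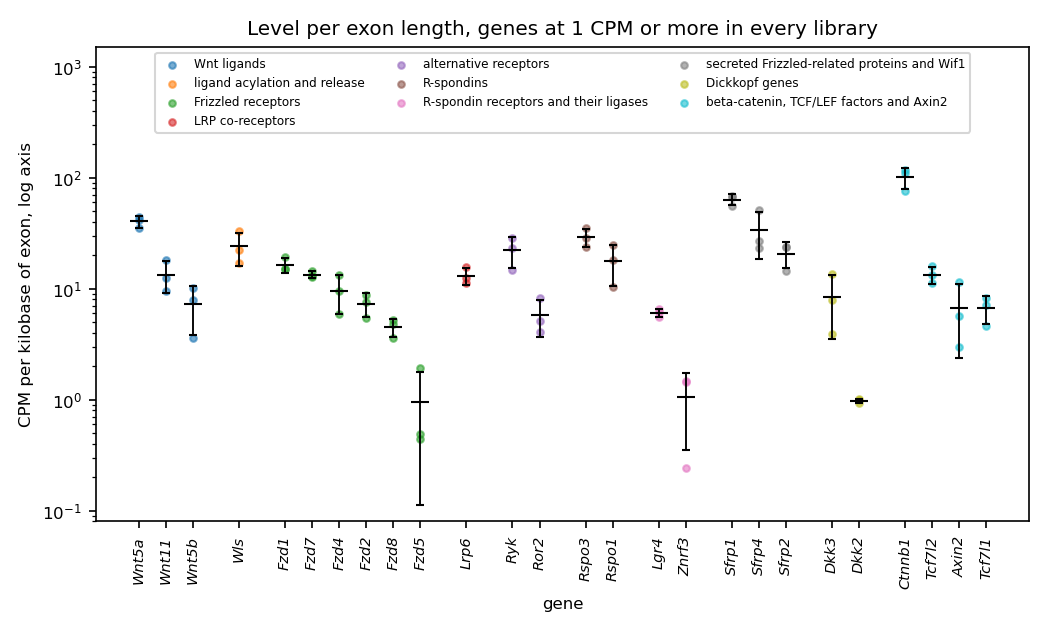
CPM per kilobase of exon (log axis) of the 26 genes at 1 CPM or more in every library, grouped by role and ordered by mean. Points are libraries, and bars give the mean and SD (n = 3). Ctnnb1 is highest at 101 and Sfrp1 leads the secreted genes at 63.3.

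Differences were computed for 19 pairs of related genes. In 18 the same gene was higher in every library, and in 17 the mean difference exceeded its SD. The exceptions to the latter were Rspo1 with Rspo3 and Tcf7 with Lef1. With 3 libraries the exact sign-flip permutation test (two-sided) cannot give p below 0.25, the value of those 18 pairs (adjusted p = 0.26 over the 19 pairs, exact permutation test), so no pair could pass 0.05.

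Other genes of the pathway were read from lists by role. Of 74 such genes, 54 (73.0%) reached 1 CPM in every library, beside 35.0% of all genes and 43.7% of protein-coding genes. These lists were chosen with earlier results of these data known, so the shares are no test of the pathway. The list of the destruction complex had 12 of 13, and it includes the tankyrase genes Tnks and Tnks2, which are not parts of the complex. Among the 12 were the casein kinase gene Csnk1a1 (222.5 ± 13.6 CPM) and Tnks2 (202 ± 78.2). Fbxw11 (70.9 to 102.9) and Gsk3b (86.1 ± 20.6) also reached 1 CPM in every library, while the neural Apc paralog Apc2 did not. Of the Dishevelled genes, which relay the signal from Frizzled, only Dvl1 (31.1 ± 13.1 CPM) reached 1 CPM in every library. Dvl2 had 3.84, 2.46 and 0 CPM, and Dvl3 had 5 counts in all. Of 14 planar polarity and Wnt5a-type genes, 9 reached it, among them Mcc (75.3 ± 22.2), Daam1 (52.25 ± 15.0), Prickle1 (42.2 ± 23.8) and Prickle2 (39.5 ± 8.85), but not Vangl2, Celsr1, Celsr2, Celsr3 or Daam2. Daam2 had 0.063, 9.04 and 12.2 CPM, low in replicate 1 as Porcn was.

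Intracellular inhibitors had 6 of 7 at 1 CPM in every library, among them Dact1, a Dishevelled-binding antagonist gene, at 434.5 ± 74.7 CPM. Of 18 other surface and secreted modulators, 13 reached it, among them Igfbp4 (459 ± 72.4), Sulf2 (408 ± 86.5), Reck (178.8 to 306.8) and Mesd (155.5 ± 23.4). Sulf2 edits heparan sulfate, Reck acts as a co-receptor for certain ligands, and Mesd is the chaperone of the LRP co-receptors. Sost and Ndp had 0 counts. Nuclear cofactors had 8 of 10. Among them were the Groucho family genes Tle4 (53.1 ± 17.9), Tle3 (41.3 to 53.3), Tle5 (34.6 ± 10.7) and Tle1 (31.0 ± 13.7). Of 18 commonly reported beta-catenin targets, a list that shares 7 genes with the named set, 7 reached 1 CPM in every library: Cd44 (185 ± 36.6), Myc (150.4 ± 53.5), Bambi (37.4 to 70.5), Axin2, Ccnd1 (15.2 ± 7.38), Ccn5 (12.5 ± 2.12) and Znrf3. Nkd1 (0.536, 0.436 and 1.61 CPM) and Ascl2 (8.88, 0.119 and 9.5 CPM) reached 1 CPM in only some libraries. Sp5 and Fosl1 had 0 counts, and Ccn4, Apcdd1, Notum, Rnf43, Lef1, Lgr5 and Tcf7 stayed below 1 CPM in every library. Several of these targets have many other inputs.

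The spread between libraries was ordinary for most of the genes. Among the 26 at 1 CPM in every library, the highest library was at least 2 times the lowest in 8 (Fzd5, Znrf3, Axin2, Dkk3, Wnt5b, Rspo1, Fzd4 and Sfrp4), while 46.7% of all genes at that level had such a range. The median range was 1.73-fold for the Wnt genes and 1.93-fold for all genes at that level, and their median levels were 49.98 and 30.7 CPM. Of the 26, 15 were lowest in replicate 3 and 14 highest in replicate 2, where 33.5% and 33.2% of all such genes were. The first count was 15 with DESeq2 size factors and 14 without TMM, and the second 13 and 14.

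**Figure D4:**
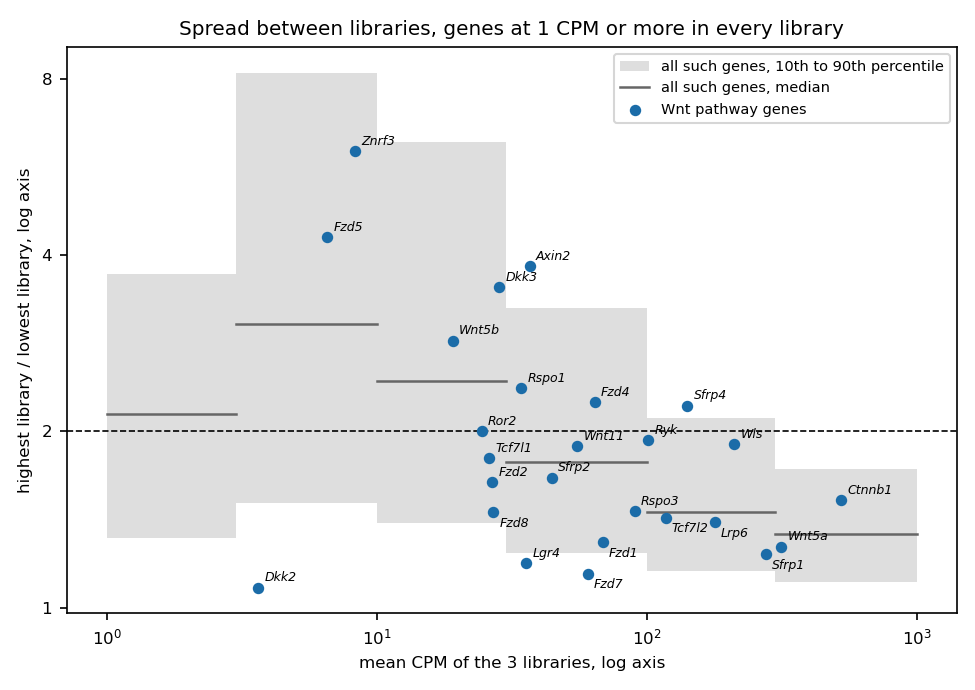
Ratio of the highest to the lowest library against mean CPM (both log axes) for the 26 Wnt genes at 1 CPM or more in every library. Grey boxes span the 10th to the 90th percentile of all such genes within each range of mean CPM, grey lines are their medians, and the dashed line marks 2-fold. Axin2 (3.83-fold) and Sfrp4 (2.21-fold) lie above their boxes and Dkk2 (1.08-fold), Fzd7 (1.14-fold) and Lgr4 (1.19-fold) lie below.

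Excess variation between libraries was tested with edgeR's goodness of fit to an intercept-only model. It called 1 of the 42 Wnt genes tested, Wnt9a (adjusted p = 2.85e-05), where 0.564% of 13289 genes were called. Porcn had an unadjusted p of 0.00592 and an adjusted p of 0.28, and Axin2 an adjusted p of 0.737. The Wnt9a call was lost without replicate 1 (adjusted p = 0.709, edgeR), without replicate 2 (adjusted p = 0.154, edgeR) and with edgeR's quasi-likelihood F distribution (adjusted p = 0.92), which called 0 of 13289 genes, with 2 Wnt genes at an unadjusted p under 0.05 as in the goodness of fit. Its single count in replicate 1 gave 0.0315 CPM with an exact Poisson 95% interval up to 0.1755. Replicates 2 and 3 had intervals of 49.1 to 54.8 and 16.7 to 19.9 CPM, all covering counting error only.

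Wnt9a was 1 of 4 genes that exceeded 10 CPM in some library and fell below 1 CPM in another, with Wnt2b, Porcn and Fzd3. This rule was set after the values were seen, and it held for 2.60% of protein-coding genes. Wnt9a, Wnt2b and Porcn were lowest in replicate 1, the most deeply sequenced library, and Fzd3 in replicate 3. The 13 counts of Porcn in replicate 1 gave an exact Poisson 95% interval of 0.218 to 0.70 CPM, against 19.1 to 22.7 in replicate 2. Marker lists of other cells also differed between libraries, not all in the same order. The summed level of the 9 mature adipocyte genes was 25.01, 109 and 75.04 CPM, lowest in replicate 1 and mostly Fabp4 (18.9, 98.6 and 72.9 CPM), with Adipoq, Cidec and Cidea at 0 counts. In that list Lipe (2.93, 0.951 and 0 CPM) and Plin1 (0.882, 0 and 0.0357 CPM) were highest in replicate 1. That of the 9 mural genes was 18.7, 92.65 and 26.5 CPM, also lowest in replicate 1 and mostly Abcc9, with Rgs5 and Higd1b at 0. Macrophage genes summed to 1.26, 3.96 and 0.179 CPM, lowest in replicate 3, with C1qb at 0, and mesothelial genes to 20.7, 10.2 and 21.4 CPM, lowest in replicate 2. The CD45 gene Ptprc had 5.42, 15.8 and 7.68 CPM. Their part in the levels of Wnt9a, Wnt2b and Porcn was not tested.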

How the data were processed

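RNA of 3 libraries was amplified as full-length cDNA with a SMARTer Ultra Low Input kit, per the labels' protocols, and no molecular identifiers are mentioned. The deposited table holds read counts per NCBI gene ID, whole numbers that were not normalized. CASAVA 1.8.2, STAR 2.3.0 and the build mm10 are listed without roles, per the submitters' processing notes. The counter, with its annotation and strand setting, is not given in the sources used here, so reads of a gene and of an overlapping antisense gene cannot be told apart. GENCODE M21 lists opposite-strand exons over parts of Wnt5a, Ctnnb1, Axin2, Rspo3, Sfrp2, Tcf7l1, Wnt11, Fzd5 and Fzd6 among others.

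Symbols came from RefSeq (GRCm38.p6, 25275 of 27179 IDs), and exon lengths from GENCODE M21 (21610 genes, all exons joined). CPM used TMM sizes from edgeR 4.0.16 in R 4.3.3. Variation between libraries was tested with edgeR's intercept-only fit and trended dispersion (10 counts or more in at least 1 library, residual deviance against chi-square, Benjamini-Hochberg over all genes). DESeq2 1.42.0 gave alternative size factors and dispersions. On simulated data for 12593 genes with 200 changed 16-fold in 1 library, edgeR's goodness of fit found 70.0% of the changed genes, with 140 of 185 calls correct. With nothing changed it called 16 of 12568 genes, and 7.27% had an unadjusted p under 0.05, so its p-values are somewhat too small. The quasi-likelihood F alternative found 66.5% of the changed genes, and called 0 with nothing changed. The simulated counts were drawn from the fitted dispersion trend itself, and only genes above 10 CPM were changed. Spread of single genes around that trend was not simulated, so these rates may not hold for the real libraries. Python 3.11.15, numpy 2.4.6, pandas 2.3.3, scipy 1.17.1 and matplotlib 3.10.9 were used.

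The set, the lists, the pairs and the tests were chosen with earlier results of these data known. The text gives every gene of the set at 1 CPM in every library and, of the other pathway lists, up to 4 genes with the highest mean, the genes at 0 counts and those needed to complete a count. The 4 printed promoters were chosen after their values were seen.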

Additional observations from a re-analysis of the deposited data

How the results depend on the processing

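The number of Wnt genes at the threshold in every library, 26 at 1 CPM, was 17 (27.4%) at 20 CPM. At that level 17.4% of all genes and 22.3% of protein-coding genes qualified. Under the other alternatives run the number was 23 to 30. Among these were 0.5 and 5 CPM, other size factors, 1 CPM per kilobase and leaving out a library. The 4 genes above 10 CPM in some library and below 1 CPM in another were 2 with 20 CPM in place of 10, and 0 to 3 when a library was left out, with 0 without replicate 1. These alternatives were chosen after seeing the data. The number of Wnt genes called as varying between libraries, 1 by edgeR's goodness of fit with 2 at an unadjusted p under 0.05, was 0 to 1 when a library was left out. It was 0 with edgeR's quasi-likelihood F distribution, with 2 at an unadjusted p under 0.05, and 1 with the DESeq2 dispersion trend or size factors. Without replicate 1 and without replicate 2 it was 0, with 1 and 3 genes at an unadjusted p under 0.05. The adjusted p of Wnt9a ran from 9.07e-07 to 0.92 over the alternatives. Leaving out a library leaves 2, and the cause of the lost calls beyond that was not tested. The 26 mean levels moved by less than 1 SD with DESeq2 size factors and without TMM. Leaving out 1 of 3 libraries cannot move a mean by 1 SD, but it moved that of Fzd5 (without replicate 1) and that of Axin2 (without replicate 2) by over 1.5 times. The 19 pair differences kept their sign on CPM without length and with the length of the longest transcript. The other alternatives could not turn the 18 pairs that had one sign in every library, and with 3 libraries none could pass a test.

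Depth limits the genes with few counts: a gene with 0 counts in a library is held only below 0.0945 to 0.119 CPM. This limit covers counting error only.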
